A study of Rattus norvegicus with 9 samples.

Results

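Transcripts of 10 nuclear-encoded subunits of mitochondrial ATP synthase were followed through 9 RNA-seq libraries. The samples are described as neonatal rat cardiac fibroblasts (CFs), the collagen-producing cells of the heart. The genes were named by symbol, and the rule took the rows of ATP5F1A, ATP5F1B, ATP5F1C, ATP5F1E, ATP5MC1, ATP5MC2, ATP5MC3, ATP5ME, ATP5MG and ATP5PO, which are 10 of the 22512 genes listed. All 10 passed the filter on low values (3 or more libraries with FPKM no lower than 1), as did 10908 genes in all. ATP5F1B passed through its vericiguat + AngII libraries alone, and most of the 10908 genes needed those libraries to pass. The set was chosen by name with the FPKM values and fold changes of the 3 groups already known, so levels and differences of the members are a description and carry no test. The listed genes with an ATP5 symbol that are not members are ATP5IF1, ATP5MF, ATP5MJ, ATP5PB, ATP5PD and ATP5PF, 6 in all.

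The blank group (3 libraries) received no drug. The AngII group (3 libraries) received angiotensin II (AngII), a peptide hormone used to activate CFs, at 0.1 µM for 72 h. The vericiguat + AngII group (3 libraries) was first incubated for 24 h with 1.0 µM vericiguat, a stimulator of soluble guanylate cyclase, and then given AngII for 72 h as the labels state it. The study's methods give another order and other times for a migration assay (AngII, then vericiguat). By the study's methods, the cells were CFs of passage 2 or 3, obtained by differential adherence from neonatal hearts. No source used here says whether the 3 libraries of a group came from separate animals or cultures. Spreads and p-values therefore describe the variation between these libraries, which may be technical. There was no group with vericiguat alone.

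ATP synthase, complex V of oxidative phosphorylation, lets protons flow back into the mitochondrial matrix and uses that flow to make ATP. Protons turn a ring of c subunits in the inner membrane, the ring turns a central shaft inside the F1 head where ATP is formed, and a peripheral stalk holds the head still. The heart depends on this enzyme for most of its ATP. ATP5F1A and ATP5F1B encode the α and β subunits that form the catalytic head, ATP5F1C the γ shaft and ATP5F1E the ε subunit at the foot of the shaft. Below, these genes are grouped as the F1 head, shaft included. ATP5MC1, ATP5MC2 and ATP5MC3 each encode the same mature c subunit behind different import signals. ATP5PO encodes OSCP, which joins the peripheral stalk to the head, and ATP5ME and ATP5MG encode the membrane subunits e and g, which take part in pairing of the enzyme into dimers.

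The sequences in front of the 3 c-ring genes, ATP5PO and ATP5ME are shown as examples, the first 3 because they encode the same mature protein and the others because they hold matches to the motifs below. ATP5MG and ATP5F1A, which also hold such matches, are not printed. The printed sequences are the 250 bases before the annotated start of the rat gene (RefSeq, GRCr8), written 5′ to 3′ on the strand of the gene. Capitals mark matches on either strand to GCGCATGC, a core of the motif of NRF1, and to CCGGAAG, a core of the motif of GABPA. Both factors are known for their role at nuclear genes of mitochondrial proteins.
ATP5MC1 (chr10:81523346-81523595, minus strand): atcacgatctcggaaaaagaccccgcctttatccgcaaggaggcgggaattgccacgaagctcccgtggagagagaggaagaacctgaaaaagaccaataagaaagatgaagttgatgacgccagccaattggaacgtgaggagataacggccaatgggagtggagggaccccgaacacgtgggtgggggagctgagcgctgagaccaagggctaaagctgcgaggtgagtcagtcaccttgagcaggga
ATP5MC2 (chr7:135678219-135678468, minus strand): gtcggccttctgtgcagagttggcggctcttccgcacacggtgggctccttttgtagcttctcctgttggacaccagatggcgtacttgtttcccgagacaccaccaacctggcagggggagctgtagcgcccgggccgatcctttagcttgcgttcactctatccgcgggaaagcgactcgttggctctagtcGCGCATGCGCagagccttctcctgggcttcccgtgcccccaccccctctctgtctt
ATP5MC3 (chr3:79220665-79220914, minus strand): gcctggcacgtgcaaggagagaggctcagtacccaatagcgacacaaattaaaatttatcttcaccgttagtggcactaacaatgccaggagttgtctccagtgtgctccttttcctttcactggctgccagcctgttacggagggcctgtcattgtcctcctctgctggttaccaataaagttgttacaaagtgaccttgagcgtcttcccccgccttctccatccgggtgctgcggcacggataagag
ATP5PO (chr11:44657484-44657733, minus strand): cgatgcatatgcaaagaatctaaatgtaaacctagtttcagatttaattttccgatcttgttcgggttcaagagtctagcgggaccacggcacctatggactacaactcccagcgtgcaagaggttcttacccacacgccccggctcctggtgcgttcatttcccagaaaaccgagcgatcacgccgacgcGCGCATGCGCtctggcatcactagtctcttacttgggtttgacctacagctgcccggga
ATP5ME (chr14:1464610-1464859, plus strand): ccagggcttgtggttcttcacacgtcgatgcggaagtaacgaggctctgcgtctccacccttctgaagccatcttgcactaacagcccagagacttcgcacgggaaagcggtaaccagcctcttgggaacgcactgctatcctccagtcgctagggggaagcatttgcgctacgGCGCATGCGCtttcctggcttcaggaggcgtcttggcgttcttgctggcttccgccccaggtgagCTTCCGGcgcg

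Promoters of all 10 members were found in the RefSeq table and searched from 250 bases before to 50 bases after the start. GCGCATGC lay in 4 of the 10, those of ATP5MC2, ATP5ME, ATP5MG and ATP5PO, and in 2.47% of the 33469 rat promoters of that length. CCGGAAG lay in 3 of 10 (ATP5F1A, ATP5ME and ATP5MG), against 8.75% of all. CCAAT, the box bound by NF-Y, was searched as well and is left in lower case above. It lay in the promoters of ATP5F1B, ATP5F1E, ATP5MC1 and ATP5MC3, 4 of 10 against 37.5% of all. No member had both GCGCATGC and CCAAT in its window. Because GCGCATGCGC reads alike on both strands, each such run counts as overlapping matches of a single site. The matches are letters in a window of the rat genome and were not measured in these cells, and the genes of the NRF1 and GABPA factors are not listed by symbol.

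The submitters' processing notes name OryCun2.0, a rabbit assembly, while the organism label is rat, and the effect of this on the levels was not tested. In the blank and AngII libraries 96.7% to 97.9% of the summed FPKM lay in 13 entries whose names begin with KEF51, against 45.3% to 52.3% in the treated libraries. What these entries encode was not established here, and any subunit of the enzyme among them is outside the lists used below. The sum of all other genes was 30992 to 37728 FPKM in blank, 45747 to 57618 FPKM in AngII and 426296 to 433771 FPKM in the treated libraries. Genes that reached FPKM 1 numbered 260 to 1542 in blank, 1155 to 1517 in AngII and 11280 to 11565 in the treated libraries. Of 15 fibroblast markers 4 are listed by symbol (COL1A2, DCN, LUM and FN1), with summed FPKM of 1.70 to 24.7 in blank, 7.09 to 25.7 in AngII and 368 to 527 in the treated libraries. Of 15 cardiomyocyte markers 6 are listed (MYH6, MYH7, TTN, RYR2, PLN and NPPA), with sums of 6.80 to 9.06, 45.0 to 109 and 3812 to 6077 FPKM in the same order. Of the defining fibroblast genes COL1A1, COL3A1 and PDGFRA are not listed by symbol, nor are TNNT2 and ACTN2 of the cardiomyocyte genes, and NPPA was at or below 0.449 FPKM in every library. The sums of the cardiomyocyte genes, like those of the ATP synthase subunits, did not overlap between the groups, and they exceeded those of the fibroblast genes in every AngII and treated library. The haemoglobin genes HBA and HBB2 summed to 154 to 398, 204 to 310 and 8364 to 15127 FPKM. In the same order the sums were 0.054 to 0.398, 0.083 to 0.421 and 81.3 to 86.2 FPKM for 2 endothelial genes, 1.18 to 25.7, 4.93 to 7.13 and 456 to 752 FPKM for 4 genes of smooth muscle and pericytes, and 0.151 to 1.14, 0 to 0.202 and 5.16 to 8.56 FPKM for the macrophage gene CD14. The part of other cell types in the results below was not tested, and in bulk samples more cells of a type and more RNA per cell cannot be told apart.

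The 4 genes of the F1 head differed widely in level. FPKM is scaled by transcript length and library size, and the effect of the named build and of gene copies on levels of different genes set side by side was not tested. ATP5F1A was at 1.72, 0.199 and 0.678 FPKM in blank, at 6.23, 2.74 and 8.23 FPKM in AngII, and at 518, 442 and 300 FPKM in vericiguat + AngII. The 3 groups did not overlap. ATP5F1B, the catalytic β subunit, was listed at 0 in all 3 blank libraries and in the first AngII library, at 0.088 and 0.086 FPKM in the other AngII libraries, and at 16.0, 13.1 and 8.33 FPKM in the treated libraries. It was the lowest of the 10 members in every library but those where ATP5MC3 or ATP5MG was also listed at 0. Although the assembled enzyme holds α and β in equal number, the transcript of ATP5F1A was at 420 ± 111 FPKM and that of ATP5F1B at 12.5 ± 3.86 FPKM in the treated group (mean ± SD, n = 3).

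ATP5F1C, the γ shaft, was at 5.61, 4.45 and 6.03 FPKM in blank, 27.9, 6.77 and 23.2 FPKM in AngII, and 375, 295 and 199 FPKM in the treated group. Its second AngII library lay just above the blank libraries. ATP5F1E, the ε subunit, was at 4.30, 3.30 and 3.04 FPKM in blank, 12.7, 15.2 and 29.5 FPKM in AngII, and 1261, 1255 and 906 FPKM in the treated group. It was the highest gene of the head in the treated group, and ATP5F1C was the highest in blank, where every library of ATP5F1C lay above every library of ATP5F1E. In AngII these genes had means of 19.3 ± 11.1 and 19.1 ± 9.07 FPKM and overlapped.

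In the c-ring, ATP5MC1 was the leading gene. It was at 1.38, 1.98 and 1.25 FPKM in blank, at 21.2, 13.1 and 33.9 FPKM in AngII, and at 665, 685 and 453 FPKM in the treated group. ATP5MC2 was at 0.149, 0.257 and 0.406 FPKM in blank, and its AngII libraries were closer together, relative to their mean, than those of any other member, at 7.22, 7.11 and 7.53 FPKM. ATP5MC2 reached 132, 129 and 66.3 FPKM in the treated group. ATP5MC3 was at 1.76, 0 and 0.123 FPKM in blank, so that its first blank library stood far from the others, and at 9.82, 3.71 and 9.48 FPKM in AngII. Its treated libraries were at 295, 242 and 164 FPKM. For each of the 3 genes the groups did not overlap.

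Among the stalk and membrane genes, ATP5ME, subunit e, was the highest member in all 3 groups. It was at 30.7, 9.33 and 18.6 FPKM in blank, 57.0, 65.8 and 79.7 FPKM in AngII, and 1350, 2315 and 1573 FPKM in the treated group. ATP5ME was the member whose highest treated library was the second and whose lowest was the first. ATP5PO, the OSCP of the stalk, was at 2.73, 1.03 and 1.71 FPKM in blank, 17.1, 18.3 and 27.8 FPKM in AngII, and 690, 740 and 370 FPKM in the treated group. ATP5MG, subunit g, was listed at 0, 0.363 and 0.191 FPKM in blank, and was at 8.48, 3.34 and 13.6 FPKM in AngII and 167, 170 and 96.7 FPKM in the treated group. Subunits e and g meet in the same part of the membrane domain, yet their transcript levels lay far apart, at 1746 ± 505 and 145 ± 41.4 FPKM in the treated group (mean ± SD, n = 3).

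**Figure D1:**
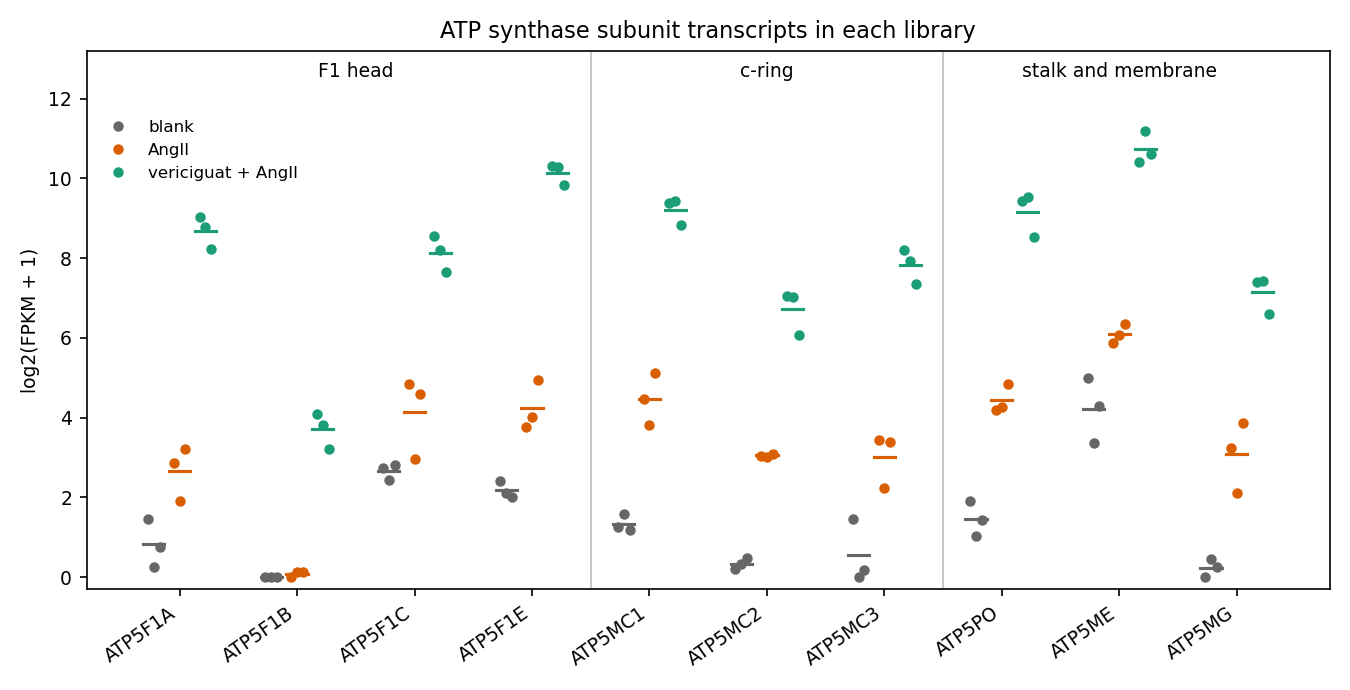
Log2(FPKM + 1) of the 10 subunit genes in each of the 9 libraries, with blank in grey, AngII in orange and vericiguat + AngII in green. Points are libraries and bars are means of 3, and the 3 groups are separate for every gene except ATP5F1B, which is listed at 0 in the 3 blank libraries and in 1 AngII library.

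The order of the members by mean FPKM was partly the same in the 3 groups. ATP5ME was first and ATP5F1B last in each, and ATP5ME did not overlap the gene below it. In blank, ATP5ME (19.5 ± 10.7 FPKM) was followed by ATP5F1C (5.36 ± 0.82 FPKM) and ATP5F1E (3.55 ± 0.665 FPKM), each apart from the next. The neighbours from ATP5PO through ATP5MC1, ATP5F1A, ATP5MC3 and ATP5MC2 to ATP5MG overlapped. In AngII, ATP5MC1 (22.7 ± 10.5 FPKM) was second and ATP5PO (21.1 ± 5.85 FPKM) came next, and all neighbours from ATP5MC1 through ATP5PO, ATP5F1C, ATP5F1E, ATP5MG, ATP5MC3 and ATP5MC2 to ATP5F1A overlapped. In the treated group, ATP5F1E (1141 ± 203 FPKM) was second and apart from ATP5MC1 (601 ± 128 FPKM), which was level with ATP5PO (600 ± 201 FPKM). ATP5F1A had rank 9 in AngII and rank 5 in the treated group, where it overlapped both its neighbours.

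The libraries in which the members were highest or lowest were counted within each group. In the treated group 9 of 10 members had their lowest value in the third library, as did 40.4% of all tested genes, with ATP5ME the exception. In AngII 7 of 10 were highest in the third library (22.9% of tested genes) and 6 of 10 lowest in the second (20.3% of tested genes). In blank 5 of 10 were lowest in the second library, the library with the fewest detected genes, as were 66.1% of tested genes. The subunits are related genes and share their libraries, so these counts do not stand for independent observations. ATP5F1C, ATP5F1E, ATP5MC1, ATP5ME and ATP5PO had FPKM of 1 or more in all 3 blank libraries, as did 2.31% of tested genes. Every member but ATP5F1B did in all 3 AngII libraries, as did 6.77% of tested genes.

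The FPKM values of several members in blank rest on few steps of the scale. For 9 members the values in the 6 blank and AngII libraries were whole multiples of a single step for each gene, once the relative depth of the libraries was taken into account, with the largest distance from a whole number at 0.032 (tolerance 0.1). If 1 step is 1 fragment, ATP5MC2 had 1, 2 and 3 fragments in the blank libraries and 42, 33 and 36 in the AngII libraries. ATP5MG had 0, 2 and 1 fragments in blank and 35, 11 and 46 in AngII. ATP5MC3 had 13, 0 and 1 in blank and 63, 19 and 50 in AngII. Of the 9 members with a step, these had the fewest over the blank group, 6, 3 and 14 in all.

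Others were better covered. ATP5MC1 had 9, 15 and 9 steps in blank and 120, 59 and 158 in AngII. ATP5PO had 16, 7 and 11 in blank and 87, 74 and 116 in AngII, and both genes therefore had at least 33 steps over the blank group. ATP5F1C, whose difference was small, was the best covered member, with 60, 55 and 71 steps in blank and 258, 50 and 177 in AngII. For this gene the second AngII library had fewer steps than each blank library, although its FPKM was higher, and the relative depth of that library was estimated at 0.691 of the first blank library. ATP5ME had 54, 19 and 36 steps in blank and 87, 80 and 100 in AngII. ATP5F1A had 30, 4 and 13 steps in blank and 94, 33 and 102 in AngII. ATP5F1E, with 0.478 FPKM per step in the first blank library, had 9, 8 and 7 steps in blank and 23, 22 and 44 in AngII. No step could be set for ATP5F1B, which is above 0 in only 2 of these libraries. For the treated libraries about 200 genes each were compared, of which 18, 21 and 13 lay at the estimated depth. That depth may be off by a factor, so no step numbers are given for the treated libraries.

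**Figure D2:**
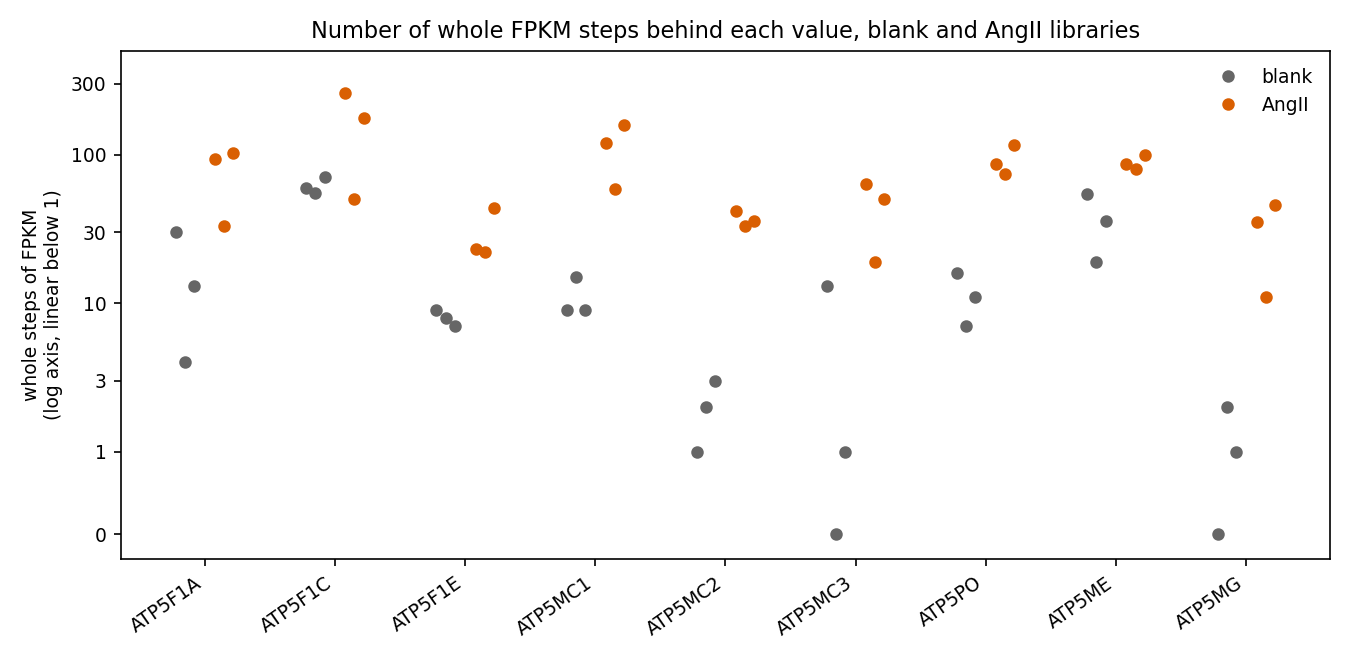
Number of whole FPKM steps behind each value in the blank (grey) and AngII (orange) libraries for the 9 members with a step, on a log axis that is linear below 1. ATP5MC2, ATP5MC3 and ATP5MG have between 0 and 13 steps in each blank library, and ATP5F1C has between 50 and 258 in the libraries shown.

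The comparison of AngII with blank asks which transcripts differ after the hormone that was used to activate the CFs. Every c-ring gene, OSCP and subunit g were higher in AngII past the thresholds (log2 fold change of at least 1 and limma adjusted p below 0.05 over all tested genes), and no gene of the F1 head was in this fit. ATP5F1A was called under 9 of the 18 alternatives with adjusted p, among them both smaller pseudocounts, median-ratio scaling, quantile normalization and leaving out the second AngII library, and ATP5F1E under 6 of them. The head and the other members are therefore not separated by their calls, and the difference between them was not tested. Thus 5 of 10 members were called higher and 0 lower, where 1.44% of tested genes were called higher, and since the members were named with this contrast known, nothing is read from that count. Differences are given on the log2(FPKM + 1) scale, which understates those of genes with low FPKM. They were 3.14 for ATP5MC1 (SE 0.55), 2.98 for ATP5PO (SE 0.55), 2.84 for ATP5MG (SE 0.47), 2.71 for ATP5MC2 (SE 0.35) and 2.48 for ATP5MC3 (SE 0.52).

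The members that were not called had smaller differences or wider errors. ATP5F1E differed by 2.07 (SE 0.58), ATP5ME by 1.87 (SE 0.71), ATP5F1A by 1.84 (SE 0.50) and ATP5F1C by 1.47 (SE 0.62). ATP5F1B is listed at 0 throughout blank, so no fold is given for it. All AngII libraries lay above all blank libraries for 9 of 10 members, against 19.8% of tested genes. After scaling each library to the same sum outside the KEF51 entries, ATP5F1A and ATP5F1C overlapped as well. The median difference was 2.27 over the 10 members and 2.48 without ATP5F1B, against 0.06 over all tested genes. Most tested genes passed the filter only with their treated libraries. The backgrounds of 19.8% and 0.06 therefore rest largely on genes that were low in both blank and AngII. With the first treated library left out, 2522 genes were tested, and their median difference was 0.38 against 2.48 over the 9 members tested. In that fit 345 of the 2522 genes and 7 of the 9 members were called higher.

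The call of these 5 members depended on single libraries and on the fit. Without the third blank library 0 of 10 members and 0 of 10906 genes were called by limma, with 8 members and 991 genes at an unadjusted p below 0.05. Without the third AngII library 1 member (ATP5MC2) and 29 genes were called. With only the blank and AngII libraries in the fit 0 members and 0 genes were called, with 8 members and 1663 genes at an unadjusted p below 0.05. After scaling outside the KEF51 entries 2 of 10 members were called higher, where 1.04% of tested genes were, and after median-ratio scaling 6 of 10, where 5.28% were.

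The comparison of vericiguat + AngII with AngII asks what differs when vericiguat is given besides AngII, before it according to the labels. All 10 members were called higher, but so were 99.5% of tested genes, and all 10 were without overlap between groups, as were 99.7% of tested genes in that direction. Most tested genes, ATP5F1B among them, passed the filter only with their treated libraries. For these genes a higher value in the treated group was largely set in advance. On the log2(FPKM + 1) scale ATP5F1A differed by 6.03 (SE 0.50) and ATP5F1E by 5.90 (SE 0.58). The other members lay between 3.63 (ATP5F1B, SE 0.19) and 4.81 (ATP5MC3, SE 0.52). The value of ATP5F1B was set by the pseudocount, since its AngII libraries were near 0, and became 6.32 with a pseudocount of 0.1 and 8.05 with 0.01, the largest of the 10 in both cases. As a ratio of mean FPKM, computed after the data were seen, the treated group was at 215 times the AngII level for ATP5F1B, 73.2 times for ATP5F1A, 59.6 times for ATP5F1E and 15.0 to 30.5 times for the other members. The median was 4.69 over the members and 2.76 over all tested genes.

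Relative to other genes the members' position in this comparison depended on the scale. With median-ratio scaling, by which the median gene is brought to the same level in each library, 0 of 10 members were called by limma. Of tested genes 2.39% were called higher. At an unadjusted p below 0.05 it was 2 of 10 members and 3236 of 10908 tested genes. The members' median difference was -0.55. After scaling each library to the same sum outside the KEF51 entries, 6 of 10 were called higher, where 43.6% of tested genes were, with a median of 1.73 against 0.92 over all tested genes. With a pseudocount of 0.01 in place of 1 the members' median lay below that of all tested genes, at a difference of -1.12. The direction of the members relative to other genes in this comparison is therefore not fixed by these data.

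The comparison of vericiguat + AngII with blank spans both steps and shares its libraries with the others. All 10 members were called higher, where 99.3% of tested genes were, and 10 of 10 were without overlap, as were 99.6%. Here too the filter largely set the result in advance for ATP5F1B and most tested genes. ATP5F1E differed by 7.97 (SE 0.58), ATP5MC1 by 7.88 (SE 0.55), ATP5F1A by 7.86 (SE 0.50) and ATP5PO by 7.71 (SE 0.55). ATP5MC3 differed by 7.29, ATP5MG by 6.91, ATP5ME by 6.52, ATP5MC2 by 6.38 and ATP5F1C by 5.48. The median was 7.10 over the 10 members and 7.29 without ATP5F1B, against 2.83 over all tested genes. After median-ratio scaling 7 of 10 members were called higher, where 6.31% of tested genes were, and ATP5F1C turned to -0.37. After scaling outside the KEF51 entries all 10 were called higher, where 45.9% of tested genes were.

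**Figure D3:**
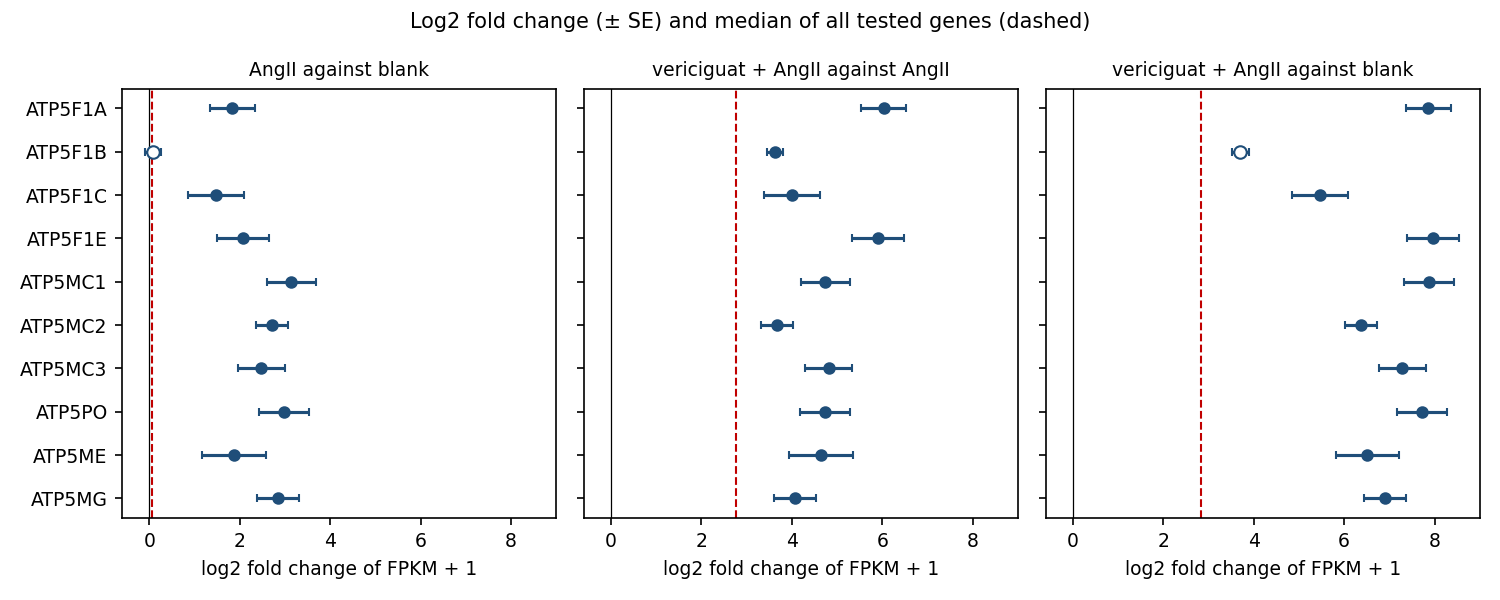
Log2 fold change of FPKM + 1 with its SE for each member in the 3 comparisons, with the median of all tested genes as a dashed line (0.06, 2.76 and 2.83). Open circles mark ATP5F1B against blank, where it is listed at 0 and the value depends on the pseudocount, and in the middle panel ATP5F1A and ATP5F1E have the largest values with the pseudocount of 1 used here.

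Summed over the 10 members, the level was 33.7 ± 13.8 FPKM in blank, 179 ± 49.5 FPKM in AngII and 5297 ± 1085 FPKM in vericiguat + AngII (mean ± SD, n = 3). The sum in AngII was 5.30 times that in blank, and the sum in the treated group was 29.6 times that in AngII. Scaled so that all FPKM outside the KEF51 entries sum to 1000000, the sums were 995 ± 507, 3449 ± 997 and 12341 ± 2596. On that scale AngII was 3.47 times blank and the treated group was 3.58 times AngII. The libraries ran from 577 to 1559 in blank, from 2362 to 4321 in AngII and from 9535 to 14659 in the treated group, and the sums did not overlap between groups on that scale either. Single members did. ATP5F1A, ATP5F1B and ATP5F1C overlapped between blank and AngII on that scale, and ATP5F1C, ATP5MC2 and ATP5MG between AngII and the treated group.

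The balance between parts of the enzyme was taken within each library, so the scale of the library falls out of it. The summed FPKM of the 3 c-ring genes over that of the 4 head genes was 0.282, 0.282 and 0.182 in blank, 0.817, 0.963 and 0.834 in AngII, and 0.503, 0.527 and 0.483 in the treated libraries. The means were 0.249 ± 0.057, 0.871 ± 0.080 and 0.504 ± 0.022 (SD, n = 3). No groups overlapped, with AngII highest, blank lowest and the treated group between them. Shaft genes made up much of the head sum. Its mean in blank was 9.8 FPKM, with ATP5F1C at 5.36 and ATP5F1E at 3.55. In the treated group it was 1863 FPKM, with ATP5F1E at 1141. With 3 libraries against 3 an exact two-sided permutation test cannot go below 0.1, and the members were named with these levels known, so no test is given.

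The order of the groups depended on which head gene stood in the ratio, as single head genes chosen after the data were seen show. The c-ring over ATP5F1E was 0.676 ± 0.089 in blank, 2.10 ± 0.79 in AngII and 0.820 ± 0.059 in the treated group, with AngII above both others. Over ATP5F1C it was 0.461 ± 0.149, 2.36 ± 1.09 and 3.30 ± 0.35, with blank below both others and an overlap between AngII (1.37 to 3.53) and the treated group (2.91 to 3.57). Over ATP5F1A it was 1.90, 11.3 and 2.62 in blank, 6.13, 8.70 and 6.19 in AngII and 2.11 to 2.39 in the treated group, so the second blank library exceeded every AngII library. AngII lay above the treated group over the whole head, ATP5F1E and ATP5F1A, and above blank over the whole head, ATP5F1E and ATP5F1C. The stalk and membrane genes over the head genes gave 2.11 ± 0.76 in blank, 2.42 ± 0.96 in AngII and 1.36 ± 0.31 in the treated group. That ratio overlapped between blank and AngII and between blank and the treated group, and was lower in every treated library (1.02 to 1.61) than in every AngII library (1.77 to 3.52).

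**Figure D4:**
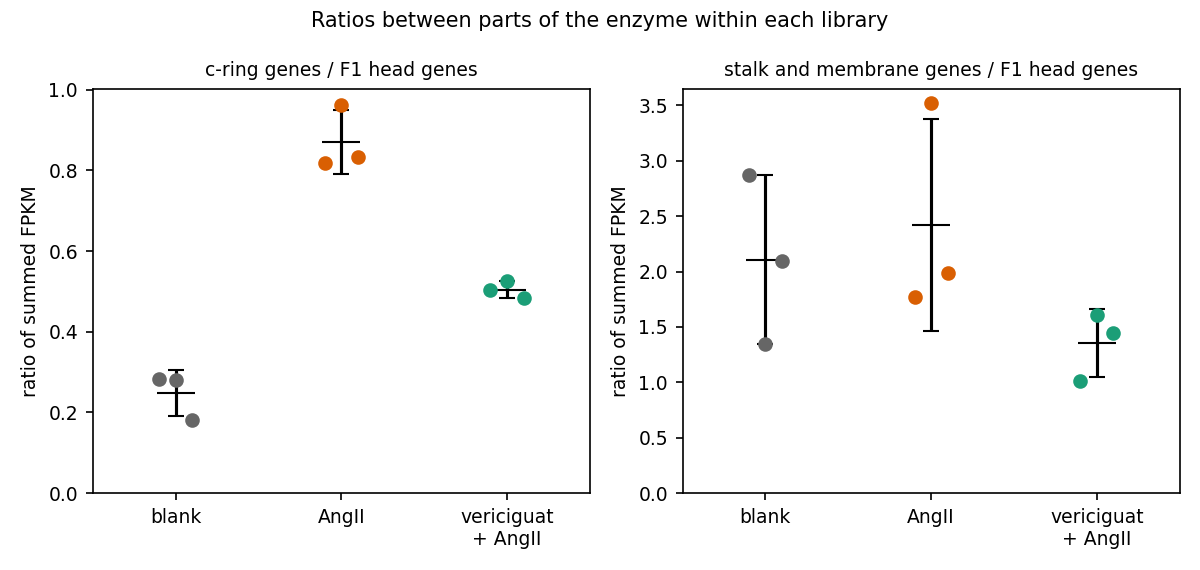
Ratio of summed FPKM of the c-ring genes (left) and of the stalk and membrane genes (right) to the F1 head genes in each library, with the mean and SD of 3 libraries in black. The left ratios are separate between groups, at 0.182 to 0.282 in blank, 0.817 to 0.963 in AngII and 0.483 to 0.527 in vericiguat + AngII, and the right ratios of blank overlap those of both other groups.

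As shares of the summed FPKM of the 10 subunits, the c-ring genes held 7.69 ± 2.69% in blank, 20.7 ± 2.80% in AngII and 17.8 ± 1.92% in the treated group. The head held 30.9 ± 6.98%, 24.1 ± 5.16% and 35.3 ± 4.01%, and the stalk and membrane genes held 61.5 ± 9.19%, 55.2 ± 7.96% and 47.0 ± 5.84%. ATP5ME alone held 55.4 ± 9.72% in blank, 38.9 ± 8.20% in AngII and 33.2 ± 7.39% in the treated group.

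Between blank and AngII the share of 4 members was higher without overlap, and for 6 members the groups overlapped. ATP5PO went from 4.94% to 5.66% across the blank libraries to 10.2% to 13.4% across the AngII libraries. The shares of ATP5MC1, ATP5MC2 and ATP5MG were the others that were higher. Between AngII and the treated group 3 members had a higher share without overlap, 1 had a lower share and 6 overlapped. ATP5F1A went from 2.02% to 3.72% in AngII to 7.02% to 9.48% in the treated group. ATP5F1E went from 7.56% to 12.7% to 20.0% to 23.1%, and ATP5F1B, the third with a higher share, stayed at or below 0.292% in every library. ATP5MC2 had the lower share, at 3.23% to 5.23% in AngII and 1.60% to 2.42% in the treated group.

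Within the c-ring, ATP5MC1 held 66.9 ± 23.5% of the c-ring FPKM in blank, 58.9 ± 6.69% in AngII and 64.0 ± 2.83% in the treated group, and led in every library except the first blank library, where ATP5MC3 held 53.5%. ATP5MC2 held 13.0 ± 9.23%, 21.2 ± 7.75% and 11.3 ± 1.41%, with every AngII library (14.8% to 29.8%) above every treated library (9.71% to 12.2%). ATP5MC3 held 20.1 ± 29.1%, 19.9 ± 5.20% and 24.6 ± 2.11%. The blank shares rest on 53 steps in all, those of ATP5MC1, ATP5MC2 and ATP5MC3 together.

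Several members have copies in the rat genome by name, and the likeness of their sequences was not compared here. The rat gene table (GRCr8) names 22 pseudogenes and 7 further genes after members. They are 11 for ATP5MG, 6 for ATP5MC2, 4 each for ATP5MC1 and ATP5F1C, 2 for ATP5F1B, and 1 each for ATP5F1E and ATP5PO. ATP5F1A, ATP5MC3 and ATP5ME have none. The processing notes name a rabbit build, so it is not known whether these rat copies were present when fragments were counted. How the authors counted fragments that fit several copies is not given in the sources used here. Any effect of copies on the levels of ATP5MG, ATP5MC2 or other members was not tested.

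Of 15 other genes of the enzyme or its assembly 7 are listed, and none was called between AngII and blank by limma, with a median difference of 1.10. ATP5PB, subunit b of the peripheral stalk, differed by 1.84 (SE 0.44, adjusted p = 0.0673), and ATP5MJ, a small membrane subunit, by 1.98 (SE 0.67, adjusted p = 0.186). ATP5PD (1.14), ATP5MF (1.10), ATP5PF (0.95) and DMAC2L (0.36) lay lower. ATP5IF1, the inhibitor that binds the head, differed by 0.60 (SE 0.73, adjusted p = 0.826). At an unadjusted p below 0.05 it was 3 of the 7, where 14.4% of tested genes passed. Over the 17 genes of the enzyme or its assembly that were found by symbol, members included, 5 were thus called. All of these are members, which were named with this contrast known, and 1.44% of tested genes were called higher. Between AngII and the treated group all 7 were called higher, with differences from 3.01 (DMAC2L) to 5.93 (ATP5IF1), as were 99.5% of tested genes.

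Other parts of oxidative phosphorylation are thinly listed by symbol. Of 37 complex I genes and of 10 regulators of mitochondrial genes 0 are listed. SDHA and SDHB of complex II, UQCRQ of complex III and COX4I1 and COX6A1 of complex IV are listed, 5 genes in all, and none was called between AngII and blank by limma, with 5 of 5 at an unadjusted p below 0.05, where 14.4% of tested genes were. UQCRQ differed by 2.71 (SE 0.70, adjusted p = 0.0876) and COX4I1 by 2.50 (SE 0.64, adjusted p = 0.0887), and all AngII libraries lay above all blank libraries for each of the 5, against 19.8% of tested genes. Of 10 carriers of adenine nucleotides, phosphate or energy across the mitochondrial membranes 5 are listed and 2 were called higher. They were SLC25A4, which exchanges ATP for ADP, with a difference of 4.16 (SE 0.54, adjusted p = 0.0153), and the channel VDAC1, with 1.73 (SE 0.33, adjusted p = 0.0308). CKMT2, the creatine kinase of muscle mitochondria, was at a mean of 1.55 FPKM in AngII and listed at 0 in blank. Cardiomyocyte markers were compared in the same way. All AngII libraries lay above all blank libraries for each of the 5 tested markers, against 19.8% of tested genes, and none was called by limma, with 3 of 5 at an unadjusted p below 0.05 (14.4% of tested genes). MYH6 was closest to the threshold, with a difference of 3.18 (SE 0.80, adjusted p = 0.0793). Within AngII it was at 2.68, 44.9 and 4.67 FPKM, with its highest value in the second library, where 6 of 10 members had their lowest. MYH7, TTN and RYR2 were also highest in that library. PLN, at 32.6, 7.57 and 25.8 FPKM, was lowest there, as those members were. The part of cardiomyocyte RNA in the members' levels was not tested.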

How the data were processed

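RNA was sequenced from 9 libraries labelled as CFs, and groups and replicate numbers were taken from the sample labels. The authors filtered and mapped the reads, and the deposited values are FPKM per gene. The submitters' processing notes list FastQC 0.11.9, Trimmomatic 0.39, HISAT2 2.2.1, featureCounts 2.0.1 and the build OryCun2.0, a rabbit assembly, for samples labelled as rat. Total counts per library were not used here. Depth was estimated only relative to the first blank library, through the whole steps of low FPKM values (tolerance 0.1). The estimates were 0.691 to 1.16 times, searched within a log2 difference of 0.7 either way, and those of the treated libraries are uncertain. Such steps cover counting error only.

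Genes that reached FPKM 1 in 3 or more of 9 libraries (10908 of 22512) were fitted with limma 3.58.1 in R 4.3.3 (lmFit, then eBayes with a trend) on log2(FPKM + 1), all 9 libraries together. A gene was called when its log2 fold change was 1 or more in size and its p, adjusted over all tested genes by Benjamini-Hochberg, was below 0.05. The code was tested on simulated data. The members, the lists, the thresholds and the alternatives were chosen with earlier results of these data known. The genes named are the 10 members, listed genes of complex V, complexes II to IV and the carriers, markers used to check the label, and the 5 genes with a symbol most like the members' mean over 9 and over 6 libraries. List genes were found by symbol in either case, and rat sequences and copy numbers are from RefSeq (GRCr8). Alternatives were a pseudocount of 0.1 or 0.01, testing without a filter, a filter at mean FPKM 5, scaling outside the KEF51 entries, median-ratio scaling over 3826 genes, quantile normalization, only the compared groups, the replicate number as a block, unadjusted p-values and each library left out in turn.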

Additional observations from a re-analysis of the deposited data

How the results depend on the processing

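Between AngII and blank 169 genes and 5 of 10 subunits were called. The counts were 969 and 7 with a pseudocount of 0.1, 1190 and 8 with 0.01, 79 and 4 without a filter, 342 and 7 of 9 at a mean FPKM of at least 5, 135 and 2 when scaled outside the KEF51 entries, 934 and 6 with median-ratio scaling, 802 and 6 with quantile normalization, 0 and 0 with only the compared groups (limma; 1663 genes and 8 subunits had an unadjusted p below 0.05), and 485 and 9 at unadjusted p. Leaving out 1 library gave 0 to 411 genes and 0 to 7 subunits. The excess of the subunits' median log2 fold change over that of all tested genes was 2.21, and 2.83 with a pseudocount of 0.1. Between vericiguat + AngII and AngII 10869 genes and 10 subunits were called. At a mean of at least 5 it was 3113 of 3124 genes and 9 of 9 subunits. The counts were 4777 and 6 when scaled outside KEF51, 465 and 0 with median-ratio scaling and 378 and 1 with quantile normalization. The excess was 1.93, and became 0.017 and -1.12 with pseudocounts of 0.1 and 0.01, 2.97 without a filter, 0.601 at a mean of at least 5, 0.812 outside KEF51, -0.64 with median-ratio scaling and 0.0060 with quantile normalization. Without 1 library the count was 2498 to 10870 genes and the excess 0.626 to 2.11. Between vericiguat + AngII and blank the 10845 genes became 3110 (of 3124 tested), 5061, 1067 and 944 under the same 4 settings and 2486 to 10869 without 1 library. The excess of 4.26 became 3.12, 1.74, 5.36, 2.91, 3.52, 1.97 and 2.13 in the order of settings just given, and 2.87 to 4.43 without 1 library. Leaving out a treated library leaves about 2500 genes over the filter, without ATP5F1B. Median-ratio scaling turned the difference between vericiguat + AngII and AngII to -1.23 for ATP5F1C, -0.55 for ATP5MC1, -1.41 for ATP5MC2, -0.34 for ATP5MC3, -0.69 for ATP5ME, -1.04 for ATP5MG and -0.55 for ATP5PO. Quantile normalization gave -0.68, -0.0092, -0.88, -0.061, -0.49 and -0.12 for ATP5F1C, ATP5MC1, ATP5MC2, ATP5ME, ATP5MG and ATP5PO. Against blank ATP5F1C turned to -0.37 and -0.45 under these scalings. The cause of these changes was not tested. Of the single subunits' alternatives 142 of 186 kept their call and direction between AngII and blank, 163 of 186 between vericiguat + AngII and AngII, and 180 of 186 between vericiguat + AngII and blank.

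With the replicate number as a block 7 genes and 0 of 10 subunits were called between AngII and blank (limma; 1554 genes and 8 subunits at an unadjusted p below 0.05). Same-numbered libraries correlated by -0.062 to 0.065 in their deviations from the group means, so the numbers were not taken to pair the libraries.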

Other observations

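The genes most like the 10 subunits were found by Pearson's r between log2(FPKM + 1) of each gene and the mean over the members, among tested genes with a symbol. Over all 9 libraries they were LDHB (r = 0.996), the lactate dehydrogenase subunit that is abundant in heart, RTRAF (0.996), ANKRD1 (0.996), a stress-responsive ankyrin repeat protein of heart muscle, the ribosomal protein gene RPL5 (0.995) and the ubiquitin-conjugating enzyme UBE2B (0.994). LDHB had mean levels of 3.56 FPKM in blank, 16.5 FPKM in AngII and 545 FPKM in vericiguat + AngII, and ANKRD1 had 1.60, 14.8 and 1050 FPKM. The median r over the 1074 genes compared was 0.947, since all libraries share the large step between the vericiguat + AngII group and the others. Over the 6 blank and AngII libraries the leading genes were the growth hormone receptor GHR (0.994), C2H2ORF49 (0.987), the junctional protein JPH1 (0.984), the selenoprotein SELENOT (0.979) and UBE2B (0.977), with a median of 0.448 over 1039 genes. Mean FPKM in blank and AngII was only 0.028 and 0.227 for GHR and 0 and 0.159 for C2H2ORF49. It was 0.023 and 0.524 for JPH1 and 0.026 and 0.156 for SELENOT. The likeness of these genes therefore rests on very low values. UBE2B, at 0.333 and 2.85 FPKM, was in both sets. These are descriptions over libraries that share their depth and scale, with no p.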
